A study of Mus musculus with 6 samples.

Results

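The 10 circadian clock genes Clock, Arntl (also called Bmal1), Per1, Per2, Per3, Cry1, Cry2, Nr1d1, Nr1d2 and Dbp were followed in cultured CD31-positive cells from mouse liver. They were taken by symbol from a deposited table of 13595 genes, and all 10 were present and passed the filter on low values. RNA was sequenced from 6 libraries, 3 per sex as labelled, with the replicates of either sex numbered 4, 5 and 6. All cells came from 4-week-old C57BL6/J mice, and every culture received 100 µM indoxyl sulfate together with 6 hours of hypoxia and nutrient deprivation. Indoxyl sulfate is a tryptophan metabolite that activates the aryl hydrocarbon receptor (AHR). Sex under treatment is thus the only contrast, and DMSO controls were not analysed here. The labels do not say whether the replicates are mice, isolations or wells, nor at what hour cells were collected. Each SD and p-value measures the spread between these libraries, which may be technical.

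The mammalian clock is a transcriptional feedback loop. CLOCK and BMAL1 form a dimer of basic helix-loop-helix PAS proteins, the family that also holds AHR and the hypoxia-inducible factors, and the dimer activates the Period, Cryptochrome, Rev-erb (Nr1d1, Nr1d2) and Dbp genes through E-box motifs. PER and CRY proteins then inhibit the dimer, while the REV-ERB nuclear receptors repress Arntl and other genes with ROR elements, and DBP acts on D-box motifs. Endothelial cells and other liver cells carry this loop.

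To show which of these motifs lie next to the annotated starts, promoter windows of 250 bases before to 50 after each start were searched (RefSeq, GRCm38.p6). Of the 10 genes, 9 matched the table, with 13 windows in all; Per2 did not. The E-box CACGTG was in 2 of the 13 windows and in 7.15% of all 32851 promoters of the same length. The D-box, TTATGTAA or TTACGTAA, was in 1 window against 1.06% of all promoters. The element shared by REV-ERB and ROR receptors, searched as TAGGTCA, was in 1 against 2.61%. The cAMP response element TGACGTCA was in 0 of the 13 windows, against 1.79% of all promoters. Both strands were read, and a match is a description of letters, not of binding. The stretches with these matches follow, 5′ to 3′ on the strand of the gene, with the motif in capitals. Those of Per1 and Cry1 are shown because both hold the E-box while Per1 was called lower under the female label and Cry1 was not called, that of Per3 for its pair of D-boxes, and that of Arntl for the element through which its repressors are known to act.
Per1, chr11:69098736-69098835, plus strand: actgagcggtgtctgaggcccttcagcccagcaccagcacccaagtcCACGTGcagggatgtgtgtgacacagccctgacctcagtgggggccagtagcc
Cry1, chr10:85185062-85185161, minus strand: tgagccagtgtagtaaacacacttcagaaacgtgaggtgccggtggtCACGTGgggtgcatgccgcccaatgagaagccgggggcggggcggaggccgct
Per3, chr4:151044794-151044893, minus strand: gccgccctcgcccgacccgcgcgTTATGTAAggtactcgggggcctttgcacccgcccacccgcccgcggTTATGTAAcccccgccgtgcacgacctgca
Arntl, chr7:113207529-113207558, plus strand: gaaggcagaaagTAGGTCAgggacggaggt

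The E-box of Per1 began 166 bases before its start and that of Cry1 60 bases before. The D-boxes of Per3 began 205 and 158 bases before the start, and the element of Arntl lay 30 bases after its second annotated start. The core ACGTG of hypoxia response elements, which is contained in the E-box CACGTG, was in 5 of the 13 windows (19.6% of all promoters). The core GCGTG of xenobiotic response elements, the sites of AHR, was in 9 of the 13 (32.4% of all promoters).

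**Figure D1:**
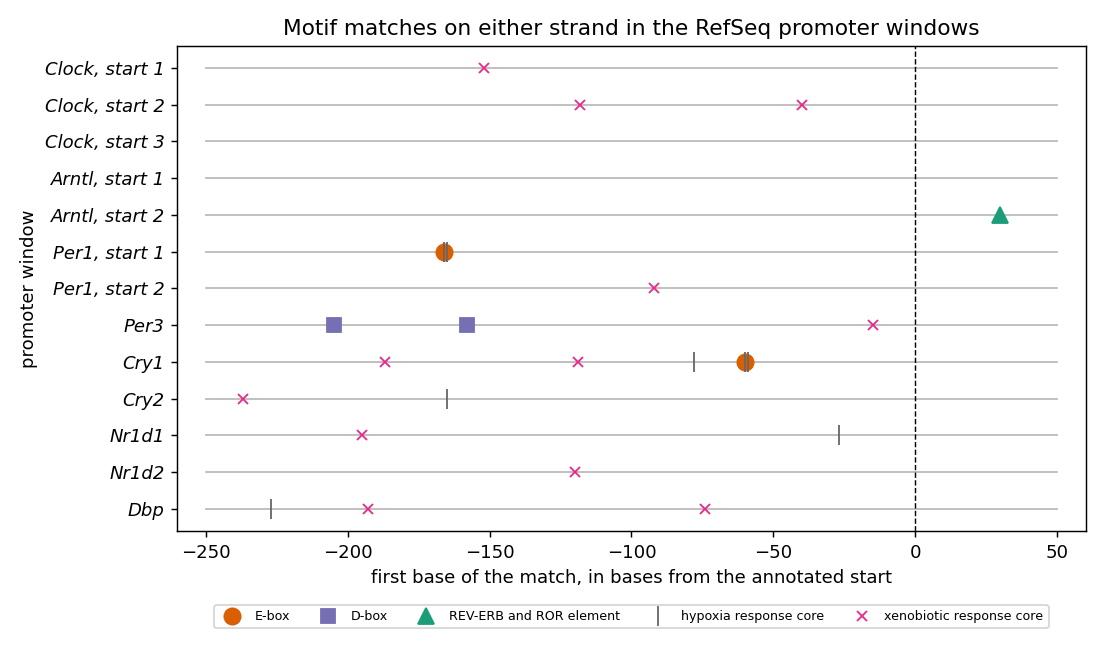
Motif matches on either strand in the 13 RefSeq promoter windows of 9 clock genes; the x axis is the distance in bases from the annotated start, and genes with several starts have a line for each. E-boxes were present in the windows of Per1 and Cry1, a pair of D-boxes in that of Per3, and the REV-ERB and ROR element in 1 window of Arntl.

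Values below are normalized read counts, meaning reads divided by 1 factor per library. The depth over all listed genes was 22303270 to 31189363 reads per library, and the clock gene with the fewest reads in any library was Dbp, with 30. The groups differed widely: limma called 69.3% of the 12568 genes tested at an adjusted p under 0.05, with 34.6% higher under the female label and 34.6% lower. Xist was between 234 and 324 in the libraries labelled female and at most 0.458 in those labelled male. The Y-linked genes Ddx3y, Uty, Eif2s3y and Kdm5d had reads in all 3 libraries labelled female too, against their label. Ddx3y (52.1 ± 4.93 female, 57.0 ± 16.8 male, SD, n = 3) and Uty (24.1 ± 3.12 against 26.9 ± 4.41) overlapped between the groups and were not called. Eif2s3y (29.8 ± 0.411 against 58.1 ± 2.97) and Kdm5d (19.1 ± 1.61 against 34.8 ± 3.61) were called lower under the female label. Each direction given here therefore rests on the labels. Of 10 endothelial markers, 8 were called lower under the female label, among them Pecam1, which encodes CD31 (73.9 ± 0.540 against 407 ± 16.2, SD, n = 3). Eng was called higher (415 ± 13.9 against 313 ± 21.3) and Kdr was not called (2.95 ± 0.636 against 3.63 ± 0.392). The summed level of the 10 was 1158 to 1221 there and 2176 to 2271 in the libraries labelled male. Of 12 mesenchymal and mural markers, 11 were tested: 7 were called lower and 4 higher, with summed levels of 3499 to 4199 (female) and 2869 to 3708 (male). Contractile genes were among the higher: Acta2 was at 1694 ± 187 (female) against 78.6 ± 47.9 (male), Tagln at 1057 ± 142 against 52.1 ± 27.5 and Myh11 at 124 ± 22.0 against 1.65 ± 0.206 (SD, n = 3). Among the lower, Col3a1 was at 226 ± 18.9 against 1266 ± 249 and Pdgfrb at 14.3 ± 1.17 against 133 ± 3.76. These 5 were chosen after their values were seen. Of 4 mesothelial markers, Msln, Upk3b and Wt1 were higher in the libraries labelled female, with Upk3b at 0 in all those labelled male, and Krt19 was lower. The summed mesothelial level was 455 to 469 (female) and 424 to 518 (male). Of 6 sinusoidal markers, 4 were too low to test. Of these, Clec4g, Fcgr2b and Stab2 were at 0.415 or lower in all 6 libraries, and Oit3 was at 0.848 or lower. Stab1 (15.7 ± 2.41 male, 1.95 ± 0.306 female, SD, n = 3) and Lyve1 (498 ± 24.8 male, 4.98 ± 0.566 female) were called lower. Lyve1 carried most of the summed level of 489 to 528 (male) and 6.79 to 8.22 (female). Hepatocyte markers summed to at most 0.953 in any library. Macrophage markers summed to 7.30 to 9.49 (male) and 11.97 to 14.3 (female), with Adgre1 at 0 throughout. Vwf, Lum, Upk3b and Wt1 reached the tested level of 1 in 1 group only, so their calls are no support for these counts. The part of these markers in the results below was not tested, and fewer cells of a type cannot be told apart from less RNA per cell.

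Among the clock genes, 7 of 10 were lower under the female label at an adjusted p under 0.05 and 1 was higher, against 34.6% of all tested genes in each direction. The lower genes were Per1, Per2, Per3, Cry2, Nr1d1, Nr1d2 and Dbp, all of them repressors or output genes of the loop. Clock was higher, and Arntl and Cry1 were not called. In 5 of the 7 the fall was at least 1 on the log2 scale, a size that 12.1% of all tested genes reached as lower calls. The median log2 difference of the 10 genes was -0.89, beside 0.01 over all genes tested. The libraries of the 2 labels did not overlap for 7 genes in the lower direction, beside 37.0% of all tested genes, and for 1 in the higher direction. In either direction 74.1% of all tested genes did not overlap.

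**Figure D2:**
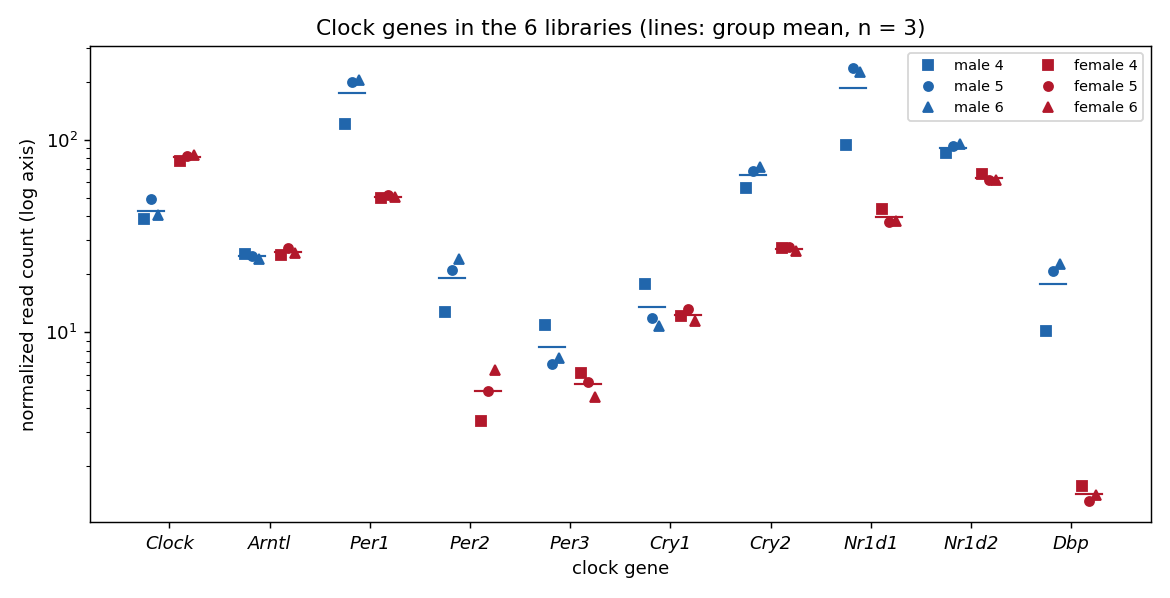
Normalized read count (log axis) of each clock gene in the 6 libraries; symbols mark replicate numbers and lines the group means (n = 3). Per1, Per2, Cry2, Nr1d1 and Dbp lie lower in the libraries labelled female, Clock lies higher, and male 4 (blue square) sits apart from male 5 and male 6 for several genes.

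Of the activating pair, Clock (chromosome 5) encodes the partner with acetyltransferase activity. It was at 38.5, 49.3 and 40.4 in male 4, 5 and 6, and at 77.4, 82.3 and 83.2 in female 4, 5 and 6. All 3 libraries labelled female lay above the highest labelled male, at 1.89 times the male mean. The log2 difference was 0.91 (SE 0.10, limma adjusted p 5.13e-05). Arntl (chromosome 7), whose loss alone stops the clock in mice, was at 25.5, 24.9 and 24.0 in the male series and 24.98, 27.5 and 25.6 in the female series. These groups overlapped, and the difference of 0.06 (SE 0.08, limma adjusted p 0.466) did not pass the test. The Clock to Arntl ratio within a library was 1.51 to 1.98 in the libraries labelled male and 2.997 to 3.25 in those labelled female. With 3 libraries against 3, the smallest two-sided p of an exact permutation test is 0.1, which this ratio reached (0.12 after Benjamini-Hochberg adjustment over the 6 ratios tested).

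The Period genes encode the PAS-domain repressors that carry CRY into the nucleus, and Per1 and Per2 are also acutely induced by hormones and cAMP. Per1 (chromosome 11) was at 121, 200 and 203 in male 4, 5 and 6, and at 49.9, 51.4 and 50.1 in the libraries labelled female. The female values lay close together, and male 4 lay between them and the other 2 male libraries. The log2 difference was -1.73 (SE 0.18, limma adjusted p 4.67e-05). Per2 (chromosome 1) was at 12.7, 20.9 and 23.9 against 3.44, 4.95 and 6.32, so that the lowest library labelled male was above the highest labelled female. It fell to 25.6% of the male mean, a log2 difference of -1.76 (SE 0.25, limma adjusted p 0.000295). Per3 (chromosome 4), which is dispensable for the core oscillation, was at 10.8, 6.79 and 7.35 against 6.10, 5.48 and 4.56. Here the groups came close, since male 5 exceeded female 4 by little, and male 4 was the highest library. The log2 difference of Per3 was -0.53 (SE 0.17, limma adjusted p 0.0245). It was -0.34 without male 4, still called, and lost its call without female 5 (-0.54, adjusted p 0.0585) or female 6 (-0.43, adjusted p 0.0901).

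The Cryptochromes are the strongest repressors of the CLOCK-BMAL1 dimer. Cry2 (chromosome 2) was at 55.9, 69.0 and 72.3 in the libraries labelled male and 27.3, 27.5 and 26.2 in those labelled female, with no overlap. It fell to 41.1% of the male mean, a log2 difference of -1.24 (SE 0.10, limma adjusted p 1.09e-05). Cry1 (chromosome 10) was at 17.8, 11.9 and 10.7 against 12.1, 13.1 and 11.4. The female values lay inside the male range, and the difference of -0.10 (SE 0.17, limma adjusted p 0.617) was not called and turned to 0.10 without male 4. The Cry2 to Cry1 ratio was 3.14, 5.82 and 6.76 in the libraries labelled male and 2.26, 2.10 and 2.29 in those labelled female. All 3 male ratios were higher (exact permutation p 0.1, adjusted 0.12).

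Nr1d1 and Nr1d2 encode REV-ERB alpha and beta, heme-binding receptors without an activation function. Nr1d1 (chromosome 11) was at 94.3, 237 and 225 in male 4, 5 and 6, and at 43.7, 37.3 and 37.7 in the libraries labelled female. No library labelled male came down to the female range, although male 4 was at 40.8% of the mean of the other 2. The log2 difference was -2.09 (SE 0.31, limma adjusted p 0.000375). Nr1d2 (chromosome 14) moved less, from 85.2, 92.3 and 94.4 to 66.0, 61.4 and 61.8, a log2 difference of -0.52 (SE 0.07, limma adjusted p 0.000172). The ratio of Nr1d1 to Nr1d2 was 1.11 to 2.57 in the libraries labelled male and 0.608 to 0.662 in those labelled female (exact permutation p 0.1, adjusted 0.12).

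Nr1d1 overlaps the thyroid hormone receptor gene Thra tail to tail, and 8.55% of its exonic bases in GENCODE M21 are also exonic in Thra on the other strand. The strand setting of the counting is not given in the sources used here, so reads in that stretch cannot be told apart. Thra was at 89.8, 91.5 and 94.6 in the libraries labelled male and 16.2, 16.4 and 17.0 in those labelled female, a log2 difference of -2.41 (SE 0.06, limma adjusted p 4.20e-08). Both genes were therefore lower, and their ratio did not separate the groups (1.05 to 2.59 against 2.22 to 2.70, exact permutation p 0.8). Across the libraries labelled male, by contrast, Nr1d1 varied from 94.3 to 237 while Thra stayed between 89.8 and 94.6.

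Dbp (chromosome 7) encodes a proline- and acid-rich leucine zipper activator and is a direct output of the dimer. It was at 10.1, 20.6 and 22.5 in male 4, 5 and 6, and at 1.58, 1.33 and 1.42 in the libraries labelled female. It thus stood at 8.14% of the male mean, and even male 4 was 6.99 times the female mean. The log2 difference was -2.87 (SE 0.26, limma adjusted p 2.12e-05), the largest of the 10, on a log2(value + 1) scale that understates changes at such low values. Of its exonic bases, 18.01% are shared with Sphk2 on the other strand. Sphk2, a sphingosine kinase gene, went the other way (10.6 ± 1.21 against 15.8 ± 0.355, SD, n = 3, log2 difference 0.53, limma adjusted p 0.00172). The Dbp to Sphk2 ratio was 0.880 to 2.43 in the male series and 0.0817 to 0.101 in the female series.

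**Figure D3:**
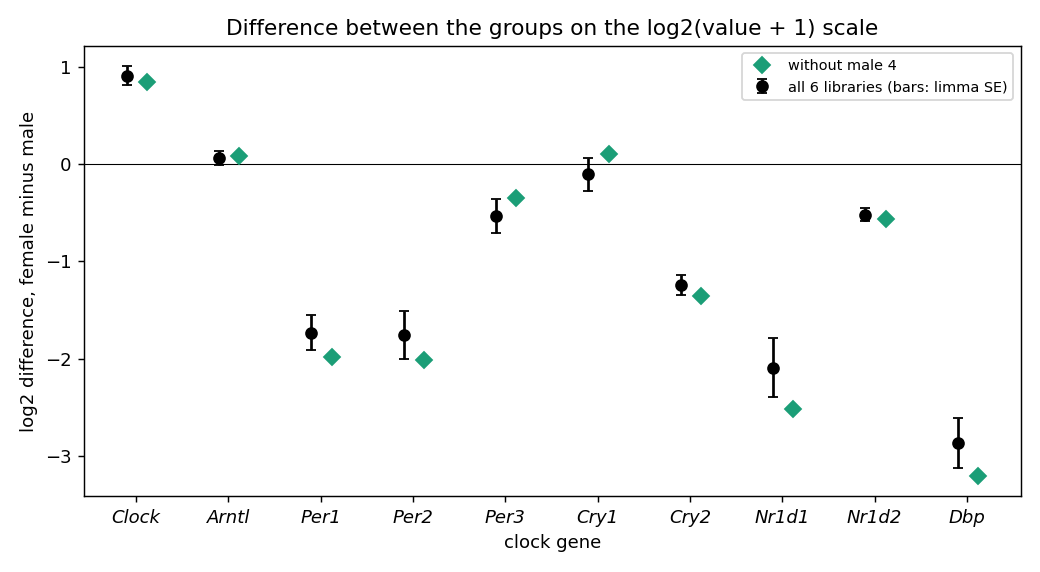
Difference between the groups on the log2(value + 1) scale for each clock gene, with all 6 libraries (black, limma SE) and without male 4 (green). The values without male 4 run further from 0 for Per1, Per2, Cry2, Nr1d1 and Dbp, and nearer to 0 for Per3.

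**Figure D4:**
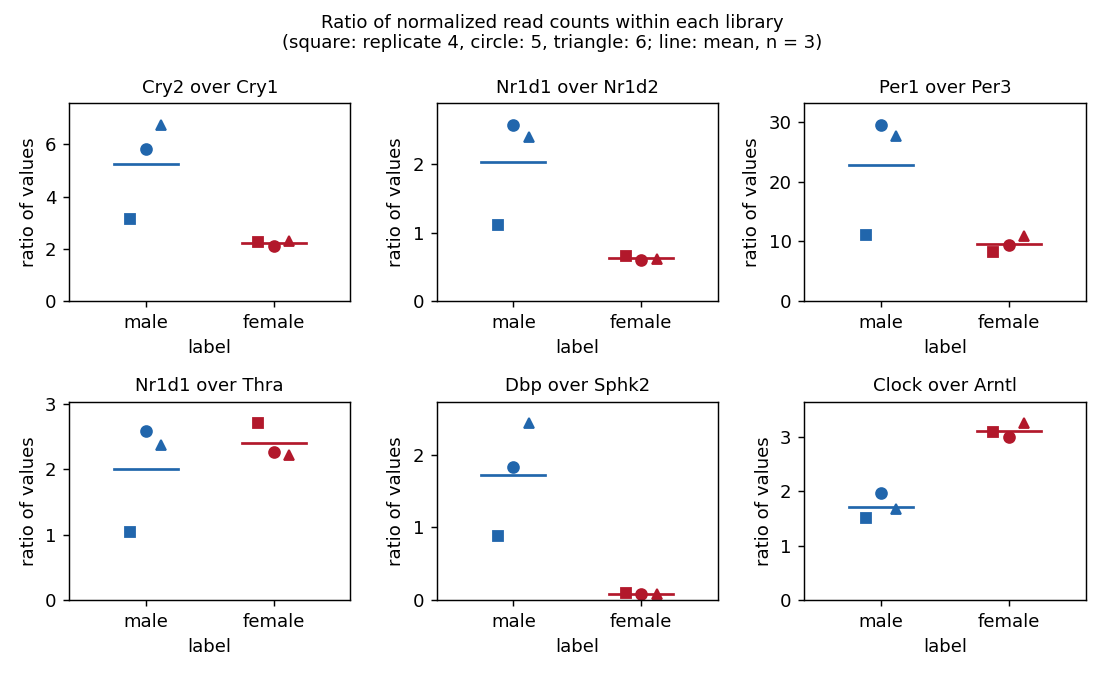
Ratio of 2 genes' normalized read counts within each library, by label, with lines at the mean of 3 libraries; every y axis starts at 0. The ratios of Cry2 to Cry1, Nr1d1 to Nr1d2, Dbp to Sphk2 and Clock to Arntl do not overlap between groups, whereas male 4 comes near the female range for Per1 to Per3 and Nr1d1 to Thra overlaps.

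Male 4 stood apart from male 5 and male 6 in the clock genes. Relative to the mean of the other 2, Nr1d1 was at 0.408 times, Dbp at 0.468 times, Per2 at 0.568 times and Per1 at 0.598 times. These 4 were past 1.5-fold lower, as were 6.54% of all tested genes. Cry1 and Per3 went the other way, at 1.58 and 1.53 times, and 4.63% of all genes were past 1.5-fold higher. In either direction this was 6 of 10 clock genes beside 11.2% of all tested genes, and this comparison of single libraries has no replicate check. Arntl, at 1.04 times, and Nr1d2, at 0.913 times, were close to the others. Contractile markers also set male 4 apart, with Acta2 at 2.61 and Tagln at 2.30 times the mean of male 5 and male 6, and their part in the clock values was not tested. Between male 5 and male 6, 0 of the 10 differed by more than 1.5-fold, beside 3.15% of all genes. The Per1 to Per3 ratio was 11.2 in male 4 and 29.5 and 27.7 in male 5 and male 6, against 8.18, 9.37 and 10.98 in the libraries labelled female (exact permutation p 0.1, adjusted 0.12). Without male 4 the calls of the 10 genes were the same in number, 7 lower and 1 higher, while 75.6% of all genes were called. A lower call of at least 1 on the log2 scale was again made for 5 of the 10, beside 12.3% of all genes. The log2 differences were then -2.52 for Nr1d1, -3.21 for Dbp, -2.01 for Per2 and -1.98 for Per1.

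Levels of different genes were set side by side per kilobase of the longest coding transcript in GENCODE M21. In the libraries labelled male the order was Nr1d1 (68.2 ± 29.1 per kilobase, SD, n = 3), Per1 (37.4 ± 10.02), Nr1d2 (19.4 ± 1.04), Cry2 (16.5 ± 2.19), Dbp (9.65 ± 3.64), Arntl (8.34 ± 0.240), Cry1 (4.44 ± 1.26), Clock (4.39 ± 0.591), Per2 (3.29 ± 0.990) and Per3 (1.39 ± 0.365). Among neighbours in this order, the ranges of Nr1d1 and Per1, of Dbp and Arntl, of Cry1 and Clock, and of Clock and Per2 overlapped, and those of the other neighbours did not. In the libraries labelled female Nr1d1 (14.5 ± 1.33) and Nr1d2 (13.5 ± 0.554) led with overlapping ranges, followed by Per1 (10.8 ± 0.170). Arntl (8.74 ± 0.432) and Clock (8.31 ± 0.322) came next and overlapped, then Cry2 (6.79 ± 0.174) and Cry1 (4.03 ± 0.273). Per3 (0.897 ± 0.129), Per2 (0.841 ± 0.246) and Dbp (0.785 ± 0.0688) were lowest and overlapped. The level of Dbp per kilobase thus ranked 5 of 10 in the male series and 10 of 10 in the female series.

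Of 10 further transcription factors and repressors of the loop, 9 were called lower under the female label and 0 higher, beside 34.6% of all tested genes in each direction, with a median log2 difference of -1.07. The largest falls were in Bhlhe40 and Bhlhe41, the DEC repressors that compete for E-boxes, and in Ciart, a repressor of the dimer. Bhlhe40 was at 826, 1389 and 1504 in male 4, 5 and 6, against 103, 105 and 117 in the libraries labelled female (log2 difference -3.46, SE 0.20, limma adjusted p 1.69e-06). Male 4 was again the lowest of its group and above every library labelled female. Bhlhe41 fell by 2.88 and Ciart by 1.55 on the log2 scale. Npas2, the paralog of Clock, was at 1.52 ± 0.374 against 0.458 ± 0.168 (SD, n = 3). Npas2 and Rorb reached the tested level of 1 only in the libraries labelled male, so their calls are no support for the count, which was 7 where 10 reads were required in every library. The log2 difference of Npas2 was -0.78 with 1 added to each value, which understates low genes, and -1.74 with DESeq2 on recovered reads. Arntl2, the paralog of Arntl, was at 10.3 ± 1.08 against 8.30 ± 0.255 (log2 difference -0.27, limma adjusted p 0.0417). That call was lost without male 4, without male 6 and without any 1 of the female libraries (adjusted p up to 0.111), under quantile normalization (0.168) and with DESeq2 on recovered reads (0.0526).

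Of the 6 output genes, 5 were called lower and 0 higher (median log2 difference -1.05), beside 34.6% of all tested genes in each direction. Hlf, a D-box factor like Dbp, was at 22.8, 25.4 and 25.7 against 0.208, 0.177 and 0.475 (log2 difference -4.32, SE 0.12, limma adjusted p 5.79e-08). The female libraries held almost no Hlf reads, and male 4 was close to the other males. Because Hlf reached the tested level only in the male libraries, its call is no support for the count, which was 4 where 10 reads were required in every library. Nfil3, the D-box repressor, was lower by a log2 difference of -1.57 and Nampt, an enzyme of NAD synthesis, by -1.18.

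**Figure D5:**
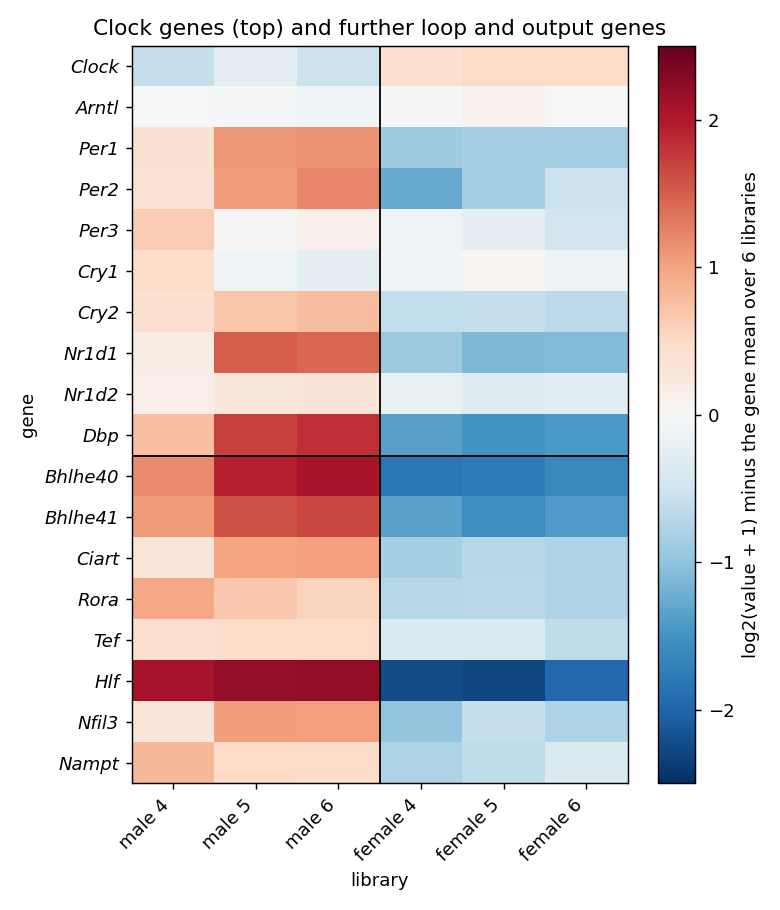
log2(value + 1) of the 10 clock genes (above the line) and 8 further loop and output genes in each library, centred on the mean of each gene over the 6 libraries. Most genes are above their mean in the libraries labelled male and below it in those labelled female, Clock is the reverse, and male 4 is paler than male 5 and male 6 for Per1, Per2, Nr1d1, Dbp, Bhlhe40, Ciart and Nfil3.

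Of 11 kinases, ligases and deubiquitinases that act on PER and CRY proteins, 3 were called higher and 5 lower (median log2 difference -0.10), beside 34.6% of all tested genes in each direction. These shares are near the background and are no result about the list. Prkaa2, a catalytic subunit of the kinase AMPK, was at 0.829, 1.64 and 1.45 against 12.7, 14.7 and 11.4 (log2 difference 2.61, SE 0.16, limma adjusted p 2.61e-06), and all 3 libraries labelled female were higher. Csnk1e, a casein kinase that phosphorylates PER, was higher by 0.25, and Prkaa1, the other catalytic subunit, by 0.18. The call of Prkaa1 was lost without male 5 or 6 or without female 5 or 6 (adjusted p up to 0.0829). Usp2, a deubiquitinase, and Fbxl21, a CRY ligase subunit, had log2 differences of -0.76 and -0.67. Counts in this list moved with single libraries, to 5 higher without male 4 and to 3 lower without female 5, male 5 or male 6.

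Of 7 chromatin cofactors, 2 were called higher and 2 lower (median log2 difference 0.06), also near the 34.6% of all tested genes in each direction. Sirt1, a deacetylase, was at 16.9 ± 1.19 against 11.2 ± 2.94 (SD, n = 3, log2 difference 0.59, limma adjusted p 0.0171). Kmt2a, a histone methyltransferase, had a log2 difference of 0.47 (limma adjusted p 0.0210). The call of Sirt1 was lost without female 4 or 5, and its log2 difference was 0.37 without male 4. That of Kmt2a was lost without female 4 or 6 or without male 5 or 6 (adjusted p up to 0.0719). Kdm5a, a demethylase that binds the dimer, was lower by a log2 difference of -0.45, and without female 5 the lower calls went from 2 to 1.

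Of 12 bHLH-PAS relatives of CLOCK and BMAL1, which include the sensors of ligands and oxygen, 8 were tested. Of these 6 were called lower and 1 higher, beside 34.6% of all tested genes in each direction. Hif1a, the oxygen-regulated subunit of HIF-1, was at 1141, 1826 and 1729 against 298, 341 and 379 (log2 difference -2.18, SE 0.17, limma adjusted p 1.03e-05). Epas1, which encodes HIF-2 alpha, was at 496 ± 28.9 against 122 ± 10.1 (log2 difference -2.02). Arnt, the common partner of AHR and HIF, had a log2 difference of -0.57 and Ahr itself one of -0.27. Hif3a had a log2 difference of -0.98 (-0.63 without male 4, where it was 2.10 times the mean of the other 2 male libraries). The AHR repressor gene Ahrr was the one called higher, at values of 0.563 ± 0.171 against 1.65 ± 0.0594 (SD, n = 3). It reached the tested level only in the libraries labelled female, so that call is no support for a direction, and none was called higher where 10 reads were required in every library. Its log2 difference was 0.77 with 1 added to each value and 1.54 with DESeq2 on recovered reads.

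Genes that glucocorticoid or cAMP induce, as they do Per1, gave 8 of 10 called lower and 1 higher (median log2 difference -1.28), beside 34.6% of all tested genes in each direction. Fos, an immediate early gene, was at 38.8, 65.8 and 70.0 against 10.9, 11.8 and 11.6 (log2 difference -2.21, SE 0.20, limma adjusted p 2.08e-05). Sik1, a cAMP-induced kinase gene, had a log2 difference of -2.15. Male 4 was the lowest male library for both, at 0.571 and 0.532 times the mean of male 5 and male 6. Sgk1, a kinase gene that glucocorticoid induces, was the one higher, at 73.0, 44.3 and 45.2 against 276, 258 and 234 (log2 difference 2.26, SE 0.18, limma adjusted p 9.18e-06).

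The genes whose profile over the 6 libraries was most like that of Dbp were Mamstr, Tiparp and Sap30, by the mean absolute difference of centred log2(value + 1) values (0.105, 0.105 and 0.110). Mamstr lies on the same chromosome with 4 coding genes between them in GRCm38.p6. It held 74, 186 and 217 reads in male 4, 5 and 6 and 1 read in each library labelled female. Mamstr reached the tested level of 1 only in the libraries labelled male, where it was at 3.07, 7.09 and 7.66. With 1 added to each value its fall is understated, so its rank is no support for a likeness to Dbp. Tiparp, an AHR target gene that encodes an ADP-ribosyltransferase, was at 394, 809 and 864 against 78.8, 75.6 and 74.5.

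In the authors' deposited table, 5 of the 10 clock genes had a false discovery rate under 0.05, beside 25.8% of all genes listed there, and all 5 were lower, beside 13.8%. These were Per1, Per2, Cry2, Nr1d1 and Dbp, with signed fold changes in the authors' deposited table of -3.46, -3.91, -2.43, -4.69 and -12.2. Clock, Per3 and Nr1d2, called by limma, had false discovery rates of 0.192, 0.179 and 0.309 in the authors' deposited table. Of the further lists, the authors' deposited table had a false discovery rate under 0.05 for 7 of the 10 loop genes, 4 of the 6 output genes and 8 of the 10 glucocorticoid and cAMP genes. It had the same for 3 of the 9 bHLH-PAS genes listed there (Hif1a, Epas1 and Arnt), 2 of the 11 PER and CRY modifiers and 0 of the 7 cofactors, beside the 25.8% of all genes in the authors' deposited table.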

How the data were processed

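Poly(A) RNA was sequenced in 6 libraries. The table holds, as signal deposited by the authors, reads scaled by library: in every column 100% of the values were whole multiples (tolerance 0.01) of the smallest value above 0, from which whole reads were recovered. The submitters' processing notes name Bowtie2, RSEM, edgeR and mm39, with no roles. The annotation, the strand setting and the rule for detectable genes are not given in the sources used here. Per the file headers, the authors also give a signed fold change (a score) and, as p-values, a p and an FDR. 0 columns lacked a sample.

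Female was compared with male by limma 3.58.1 (R 4.3.3, eBayes with trend) on log2(value + 1) for the 12568 genes that reached a value of 1 in 3 or more libraries. Benjamini-Hochberg adjustment covered all of them, at a threshold of 0.05. The clock genes and lists were chosen with earlier results of these data known. Named genes were the 10 clock genes, the 3 largest called changes of each further list, called genes against the direction of their list, and a few fixed genes; Sphk2 was added after its overlap was seen. The 6 ratios and the male 4 comparison were also chosen after seeing the data. Noct and Adgre1 were found under older symbols. Alternatives were a pseudocount of 0.1, no filter, a minimum of 10 reads per library, RLE and quantile normalization, edgeR 4.0.16 (TMM, RLE), DESeq2 1.42.0 and voom on recovered reads, the replicate block, and each library left out. The fits were tested on simulated counts. Because the authors' build differs from the annotation (GENCODE M21, RefSeq GRCm38.p6), the only coordinates given are those of the printed promoter stretches, in GRCm38.p6.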

Additional observations from a re-analysis of the deposited data

How the results depend on the processing

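Over the 10 alternatives with all 6 libraries, 99 of 100 recomputed log2 differences of the clock genes kept their direction and side of the threshold. The exception was Per3 under quantile normalization (-0.46, adjusted p 0.0671), where the count of lower clock genes was 6. Leaving out 1 library at a time, 57 of 60 did: Per3 ran from -0.65 to -0.34 and was not called without female 5 or female 6, and Cry1, never called, ran from -0.24 to 0.10. The causes were not tested. Lower clock genes then numbered 6 to 7 and higher ones 1. All genes called ran from 8236, where 10 reads were required per library, to 9085 unfiltered, and from 7731 to 9496 with 1 library left out. Calls on recovered reads by edgeR with TMM numbered 8651. Of the list counts, recomputed as an addition after seeing the data, the higher cofactors became 4 under quantile normalization and the higher bHLH-PAS genes 0 where 10 reads were required per library, which removes Ahrr. With 1 library left out, higher cofactors ran from 0 to 3, lower cofactors from 1 to 2, higher PER and CRY modifiers from 2 to 5 and lower ones from 3 to 5. Among other named genes Ddx3y, not called, ran from -0.21 to 0.13. Libraries of the same number did not deviate together (correlations of same-numbered deviations across genes -0.09, -0.03 and -0.17). A fit with the replicate block called 8314 genes, 7 clock genes lower and 1 higher, and of the named genes Arntl2 (-0.27) and Prkaa1 (0.18) were no longer called. Arntl2 was also not called under quantile normalization (-0.19) or with DESeq2 (-0.31). Genes with few reads in a group, such as Dbp, Npas2, Hlf, Ahrr and Prkaa2, are limited by depth.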
